A study of Mus musculus with 7 samples.

Results

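Whole-uterus RNA sequencing was used here to follow 8 aquaporins, Aqp1, Aqp2, Aqp3, Aqp4, Aqp5, Aqp8, Aqp9 and Aqp11, chosen by gene symbol out of 24964 listed genes. Expression was given as FPKM, a fragment count corrected for gene length and library size, so levels of different genes can be set side by side. The control group was 3 libraries from mice of genotype Pgrcre/+, in which Cre recombinase is made from 1 copy of the progesterone receptor gene, with replicate numbers 1, 2 and 4. The other group was 4 libraries from mice of genotype Pgrcre/+Foxl2LsL/+, which carry the same Cre allele and a Foxl2LsL allele, with numbers 1 to 4. All were 12 weeks old and labelled as being in diestrus. The Cre allele is therefore common to both groups, and it acts in the cells that use the progesterone receptor gene, not in the whole organ. The labels do not say whether each library came from a separate animal. The p-values therefore set group differences against the spread between libraries, which need not be that between animals.

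Aquaporins are membrane channels that let water follow osmotic gradients. The aquaglyceroporins among them, here Aqp3 and Aqp9, also pass glycerol, and Aqp11 lies largely inside the cell, in the endoplasmic reticulum. In the uterus, estrogen is known to draw water into the tissue and the lumen, and lumen fluid is taken up again around the time of implantation, with epithelial, stromal, muscle and vessel cells each using different channels.

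The check of the targeted gene did not follow the labels: Foxl2 averaged 14.4 ± 4.32 FPKM (SD, n = 3) over the controls and 14.7 ± 1.86 FPKM (SD, n = 4) over the libraries labelled Foxl2LsL (adjusted p 0.818 by limma with Benjamini-Hochberg). Directions therefore follow the labels alone. Recovered library totals were 47800000 to 67300000 fragments. Control 2 stood apart in the sum of its oviduct markers, 318 FPKM against 28.8 to 51.9 FPKM in the other 6 libraries. Most of this sum was Ovgp1, at 291 FPKM in control 2. Foxj1 of that list was also highest there (3.78 FPKM). Pax8 was not: it was at 23.1 FPKM there, 25.1 FPKM in control 1 and 28.9 to 40.2 FPKM in the libraries labelled Foxl2LsL. Adipose markers summed to between 0.136 and 190 FPKM and were highest in the libraries labelled Foxl2LsL 2 and 3. In whole tissue, fewer cells of a type and less RNA per cell cannot be told apart.

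The finding was carried by 3 members whose groups were far apart: Aqp3 and Aqp8, which were higher, and Aqp11, which was lower in the libraries labelled Foxl2LsL. Their upstream sequences are shown because these are the members that moved. The RefSeq promoter table held windows for 7 of the 8 members. Each runs 5′ to 3′ on the gene's strand and ends at the RefSeq start site or at the first base of a GENCODE exon, and comes from the RefSeq promoter table on GRCm38.p6. Capitals mark motif matches.
Aqp3: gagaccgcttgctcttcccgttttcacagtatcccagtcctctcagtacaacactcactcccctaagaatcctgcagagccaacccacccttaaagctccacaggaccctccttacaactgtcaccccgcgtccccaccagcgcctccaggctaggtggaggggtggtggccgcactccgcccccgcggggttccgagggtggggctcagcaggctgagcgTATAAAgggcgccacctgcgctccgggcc
Aqp8: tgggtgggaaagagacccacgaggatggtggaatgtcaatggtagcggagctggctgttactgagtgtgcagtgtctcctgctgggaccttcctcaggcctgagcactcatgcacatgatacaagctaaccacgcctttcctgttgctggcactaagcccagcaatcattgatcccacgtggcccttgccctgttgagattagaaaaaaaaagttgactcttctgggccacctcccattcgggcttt
Aqp11: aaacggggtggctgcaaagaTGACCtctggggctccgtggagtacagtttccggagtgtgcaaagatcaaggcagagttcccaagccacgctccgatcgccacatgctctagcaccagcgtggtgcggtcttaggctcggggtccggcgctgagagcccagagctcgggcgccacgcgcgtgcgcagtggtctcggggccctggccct
The Aqp3 stretch is chr4:41098184-41098433 on the minus strand, that of Aqp8 chr7:123462044-123462290 on the plus strand, and that of Aqp11 chr7:97738290-97738497 on the minus strand. In Aqp3 the capitals are a TATA box, TATAAA, that begins 29 bases before the start site, a motif added to the search after the values were seen. In Aqp11 they are TGACC, the reverse complement of the estrogen response element half-site GGTCA, beginning 230 bases before the start site. In the Aqp8 stretch no searched motif was found. Motifs were searched on both strands of the 250 bases before each start site. GGTCA was present in 35.2% of the 32851 windows in that table, TATAAA in 12.4%, the forkhead motif TGTTTAC in 3.17% and the full estrogen response element GGTCANNNTGACC in 0.0639%. Neither the full element nor the forkhead motif was found in the windows of these 3 genes. The half-site is part of the full element, so their matches can overlap. GC content was 64.0% in the Aqp3 window, 67.2% in that of Aqp11 and 52.4% in that of Aqp8, beside a median of 52.4% over all windows.

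Most of the aquaporin signal was Aqp1, and the order of the members below it changed between the groups. In controls the mean levels fell from Aqp1 (46.7 FPKM) to Aqp5 (13.1 FPKM), Aqp11 (11.8 FPKM) and Aqp8 (1.02 FPKM), with the other members at 0.173 FPKM or less. In the libraries labelled Foxl2LsL the order was Aqp1 (51.5 FPKM), Aqp5 (17.0 FPKM), Aqp8 (8.49 FPKM), Aqp11 (3.31 FPKM) and Aqp3 (2.08 FPKM). The ranges of Aqp5 and Aqp11 overlapped in controls, and Aqp5 was the higher of the pair in 2 of 3 libraries. In the libraries labelled Foxl2LsL the ranges of Aqp5 and Aqp8 overlapped, and so did those of Aqp11 and Aqp3, while Aqp8 lay above Aqp11 in 4 of 4 libraries.

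**Figure D1:**
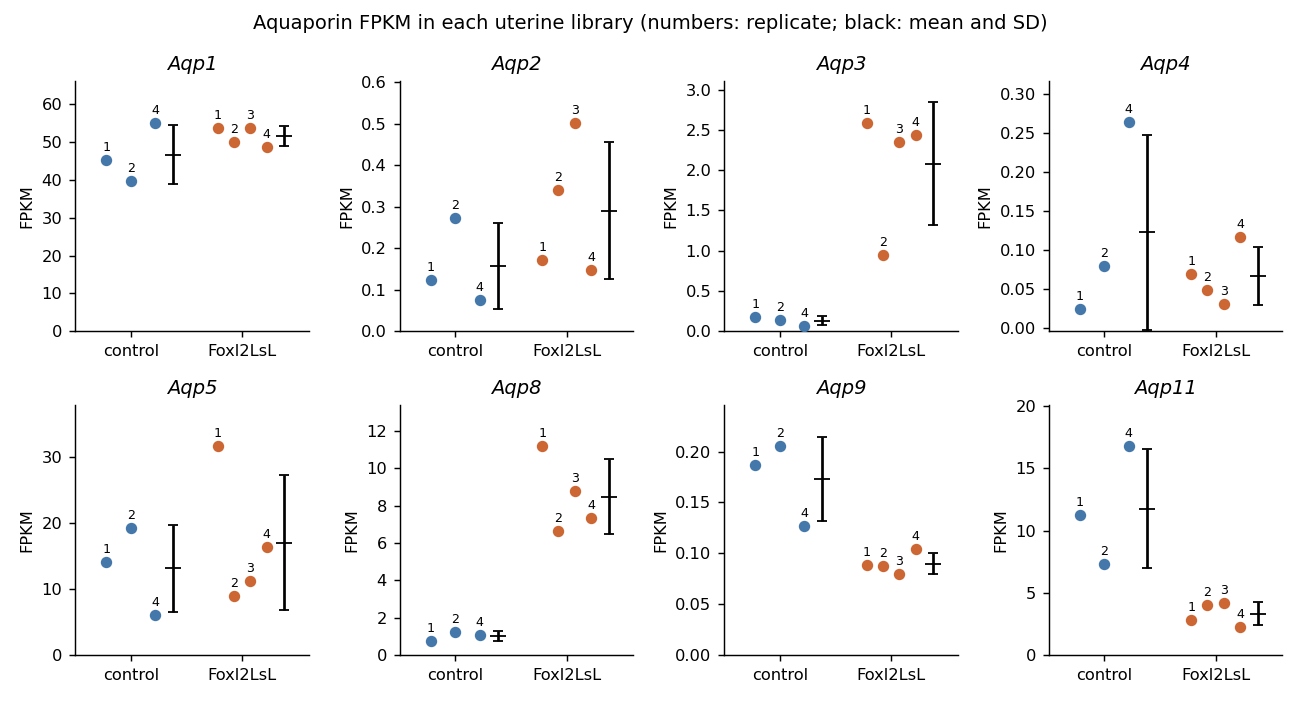
FPKM (vertical axis) of each of the 8 aquaporins in 3 control and 4 Foxl2LsL-labelled libraries; points are libraries with their replicate numbers, and black bars give the mean and SD of each group. The groups do not overlap in Aqp3 and Aqp8, which are higher, and in Aqp9 and Aqp11, which are lower in the libraries labelled Foxl2LsL; the vertical scales differ between genes.

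Of the 8 members, 5 had a mean of at least 1 FPKM over the 7 libraries and were tested with the other genes on the log2(FPKM + 1) scale. Of these 5, 2 were higher and 1 was lower at the adjusted p threshold of 0.05 (limma over 13334 genes, Benjamini-Hochberg), where 40.6% of all tested genes were called, 16.7% higher and 23.9% lower. The excess of lower calls depended on scaling: the 2224 higher and 3185 lower genes became 2678 and 2637 with median centring and 2663 and 2753 with quantile normalization. The groups did not overlap in these same 3 members, beside 47.6% of all tested genes, 19.7% higher and 27.9% lower. Aqp3 passed the filter only through the libraries labelled Foxl2LsL, so these counts show nothing particular to the family. The median log2 fold change was 0.33 over the 5 tested members and -0.05 over all tested genes.

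Aqp8, an epithelial channel that passes water and also hydrogen peroxide and ammonia, rose. It was at 0.743, 1.25 and 1.06 FPKM in controls 1, 2 and 4 and at 11.2, 6.63, 8.80 and 7.35 FPKM in the libraries labelled Foxl2LsL 1 to 4. The lowest library labelled Foxl2LsL lay above the highest control, and the ratio of the group means was 8.35. The log2 fold change was 2.22 on the log2(FPKM + 1) scale (SE 0.17; adjusted p 0.000216 by limma with Benjamini-Hochberg). Fitted to the recovered fragments in place of log2(FPKM + 1), the log2 fold change was 3.08 (limma-voom, adjusted p 0.000473). Between 70 and 1088 fragments lay on Aqp8 in each library. Relative to all listed genes, its mean level stood above 47.0% of them in controls and above 71.7% in the libraries labelled Foxl2LsL. Without control 2 the log2 fold change was 2.30. The gene lies at chr7:123462291-123468004 on the plus strand (GRCm38, GENCODE M21), with no exon of another gene overlapping its exons.

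Aqp3, an aquaglyceroporin best known from kidney collecting duct and skin, was near the bottom of the range in controls and clearly present in the libraries labelled Foxl2LsL. It was at 0.179, 0.143 and 0.069 FPKM in controls 1, 2 and 4, which rested on 20, 17 and 8 fragments. In the libraries labelled Foxl2LsL 1 to 4 it was at 2.59, 0.95, 2.34 and 2.44 FPKM, on 299, 80, 250 and 226 fragments. Library 2 of that group lay well below its 3 companions but above every control. The ratio of the group means was 15.96, and the log2 fold change was 1.41 on the log2(FPKM + 1) scale (SE 0.22; adjusted p 0.00243 by limma with Benjamini-Hochberg). That p-value comes after a filter that Aqp3 passed only through the libraries labelled Foxl2LsL. With no filter the adjusted p was 0.00506 by limma with Benjamini-Hochberg. At levels this low the pseudocount compresses the difference: the log2 fold change was 3.18 with a pseudocount of 0.1 and 3.98 in limma-voom on the fragments (adjusted p 0.00112 and 0.00157). The gene lies at chr4:41092722-41098183 on the minus strand, 44.6 kb from Aqp7.

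Epithelial and macrophage markers were read beside the rises of Aqp8 and Aqp3. Of 9 simple epithelium genes, 1 was higher past the threshold (Krt18, a keratin of simple epithelium, log2 fold change 0.80) and 8 did not pass, beside 16.7% of all tested genes called higher. Their summed level was 771 to 1446 FPKM in controls and 1098 to 1514 FPKM in the libraries labelled Foxl2LsL, so the groups overlapped. Markers of stratified or basal epithelium summed to 1.62 to 3.55 FPKM in controls and 3.58 to 6.30 FPKM in the libraries labelled Foxl2LsL. Of their 6 genes only Krt13 was tested, and it was higher (log2 fold change 0.68). Krt5, a basal keratin picked out with its values known, averaged 0.0447 ± 0.0122 FPKM (SD, n = 3) over controls and 1.38 ± 0.935 FPKM (SD, n = 4) over the libraries labelled Foxl2LsL. Others of this list had lower means in the libraries labelled Foxl2LsL: Krt4, a keratin of stratified mucosa, was at 0.468 and 0.0475 FPKM without overlap, Krt14 at 0.240 and 0.136 FPKM, and Trp63, the defining factor of basal cells, at 0.286 and 0.257 FPKM. None of the 6 was at 0 in every library. Of 5 macrophage genes, 2 were higher past the threshold (Csf1r and Mrc1) and 3 did not pass, and their sum was 52.7 to 70.7 FPKM in controls and 74.6 to 107 FPKM in the libraries labelled Foxl2LsL, without overlap. The part of epithelial cells or macrophages in the rises of Aqp3 and Aqp8 was not tested.

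Aqp11, an intracellular channel whose loss in mice gives cystic kidneys, fell. It was at 11.3, 7.31 and 16.8 FPKM in controls 1, 2 and 4 and at 2.79, 4.01, 4.21 and 2.25 FPKM in the libraries labelled Foxl2LsL 1 to 4. Every library labelled Foxl2LsL lay below the lowest control, and controls spread over more than a doubling of the lowest value. The control mean was 3.55 times that of the libraries labelled Foxl2LsL, and the log2 fold change was -1.53 (SE 0.27; adjusted p 0.00408 by limma with Benjamini-Hochberg). Between 156 and 1455 fragments lay on the gene in each library. It lies at chr7:97724006-97738289 on the minus strand, and no exon of another gene overlapped its exons.

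Gland, oviduct and adipose markers were read beside Aqp11, and of these only the gland list had sums that did not overlap between the groups. The uterine gland markers Foxa2, Cxcl15 and Aldh1a1 were lower in 3 of 3 tested genes, beside 23.9% of all tested genes, and the 6 genes of that list summed to 64.5 to 95.3 FPKM in controls and 19.3 to 23.6 FPKM in the libraries labelled Foxl2LsL. Spink1 of that list was at 0 in 6 of the 7 libraries, all but control 4. Prss28 and Prss29, untested and near 0, had higher means in the libraries labelled Foxl2LsL. Prss28 averaged 0.0127 FPKM in controls and 0.0413 FPKM in that group. Prss29 averaged 0.0127 and 0.0878 FPKM, without overlap. Control 2, with the oviduct sum at its highest through Ovgp1, had the lowest Aqp11 of the controls, and without it the log2 fold change was -1.80. Control 4, with 69.4 FPKM of adipose markers against 0.136 and 6.78 FPKM in controls 1 and 2, had the highest Aqp11 of the controls, and without it the log2 fold change was -1.25. The gland sum was lowest of the controls in control 4, at 64.5 FPKM against 95.3 and 92.1 FPKM in controls 1 and 2. That order followed Aldh1a1, at 68.9, 55.8 and 22.6 FPKM in controls 1, 2 and 4. Foxa2 and Cxcl15 went the other way, at 6.57 and 31.4 FPKM in control 4 against 4.57 and 21.9 FPKM in control 1. Adipose markers in the libraries labelled Foxl2LsL summed to 2.03 to 190 FPKM, a range that overlaps that of the controls. Libraries 2 and 3 of that group had its highest adipose sums and its highest Aqp11. Library 4, with 14.2 FPKM of adipose markers, had less Aqp11 than library 1, with 2.03 FPKM. The part of gland, oviduct or adipose cells in the fall of Aqp11 was not tested.

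Within each library, Aqp8 and Aqp11 were also compared directly. The ratio of their FPKM, Aqp8 over Aqp11, was 0.0660, 0.171 and 0.0630 in controls 1, 2 and 4 and 3.999, 1.66, 2.09 and 3.27 in the libraries labelled Foxl2LsL 1 to 4. It was below 1 in every control and above 1 in every library labelled Foxl2LsL. Each gene already separated the groups, in opposite directions, so the ratio had to separate them too and adds no support. Aqp8 made up 1.40% ± 0.405 (SD, n = 3) of the summed FPKM of the 8 members in controls and 10.2% ± 0.858 (SD, n = 4) in the libraries labelled Foxl2LsL. Aqp11 made up 15.8% ± 5.19 (SD, n = 3) and 4.12% ± 1.52 (SD, n = 4). Aqp1 held 63.5% ± 5.55 (SD, n = 3) and 63.0% ± 7.62 (SD, n = 4). Summed FPKM averaged 73.2 ± 5.79 (SD, n = 3) over the controls and 82.9 ± 13.5 (SD, n = 4) over the libraries labelled Foxl2LsL, and the groups overlapped. The library labelled Foxl2LsL 1, at 102 FPKM, was the highest of the 7, and without it the difference in the sum shrank from 9.69 to 3.24 FPKM.

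**Figure D2:**
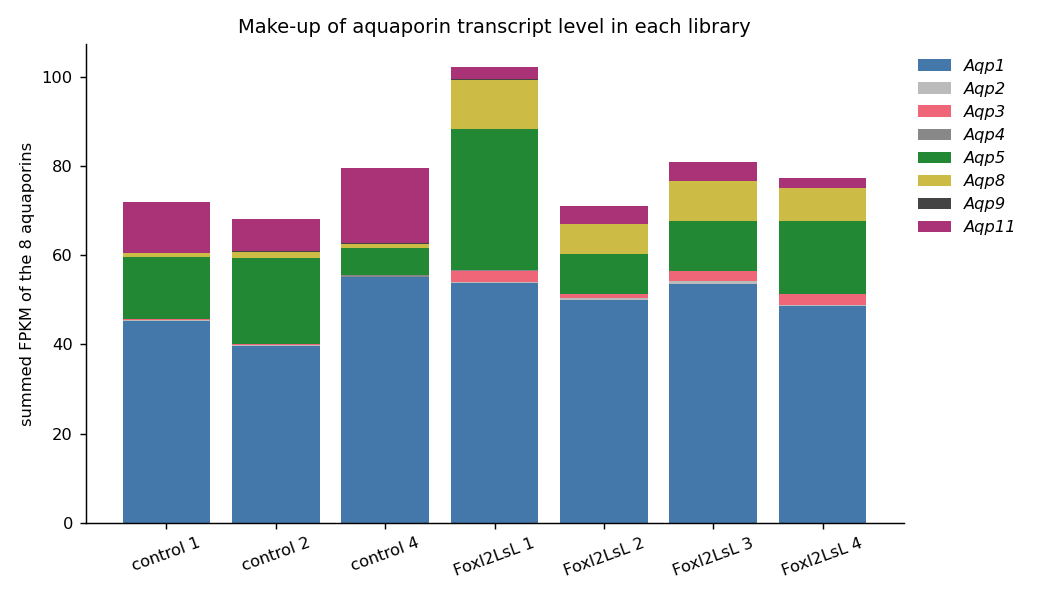
Summed FPKM of the 8 aquaporins (vertical axis) in each library (horizontal axis), with each bar divided by gene. Aqp1 is the main part of every bar, Aqp8 takes a larger part and Aqp11 a smaller part in the 4 libraries labelled Foxl2LsL, and library 1 of that group is the tallest and has the largest Aqp5 part.

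Aqp5, the apical water channel of secretory epithelia such as salivary and airway glands, did not pass the threshold and had the largest SE of the 5 tested members. It was at 14.1, 19.2 and 6.06 FPKM in controls 1, 2 and 4 and at 31.6, 8.99, 11.3 and 16.3 FPKM in the libraries labelled Foxl2LsL 1 to 4. The groups overlapped widely, with the lowest value in a control and the highest in a library labelled Foxl2LsL. The log2 fold change was 0.33 with a 95% interval of -0.77 to 1.42 (SE 0.47; adjusted p 0.609 by limma with Benjamini-Hochberg), so the interval holds both a fall and a rise of more than 1.5-fold. Its sign was negative without control 4 (-0.11) and without the library labelled Foxl2LsL 1 (-0.01). Each library had at least 617 fragments on Aqp5, and counting error is small against this spread. The simple epithelium sum was lowest in control 4 (771 FPKM) among controls and in library 2 (1098 FPKM) among those labelled Foxl2LsL, as was Aqp5. Library 1 labelled Foxl2LsL was highest of its group in both. Other orders differed: the sum was 1446 FPKM in control 1 and 981 FPKM in control 2, where Aqp5 was higher. It was 1474 FPKM in library 3 labelled Foxl2LsL and 1461 FPKM in library 4, where Aqp5 was higher. The part of epithelium in the spread of Aqp5 was not tested.

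Among the libraries labelled Foxl2LsL, Aqp3, Aqp5 and Aqp8 were each highest in library 1 and lowest in library 2. Aqp11 had another order, with library 4 lowest and library 3 highest. These orders rest on 4 libraries and carry no test.

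Aqp1, the constitutive water channel of vessel endothelium, red cells and some muscle, was the most abundant member and did not pass the threshold. It was at 45.3, 39.7 and 55.1 FPKM in controls 1, 2 and 4 and at 53.8, 50.0, 53.7 and 48.6 FPKM in the libraries labelled Foxl2LsL 1 to 4. Control 4 was the highest of the 7 libraries and controls 1 and 2 the lowest, so the groups overlapped. The log2 fold change was 0.15 with a 95% interval of -0.11 to 0.41 (SE 0.11; adjusted p 0.311 by limma with Benjamini-Hochberg). Without control 4 the change was 0.27 and passed (adjusted p 0.0416 by limma with Benjamini-Hochberg), as did 5328 of 13334 genes. Its level stood above 95.3% of listed genes in controls and above 96.0% in the libraries labelled Foxl2LsL.

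Markers of vessel and muscle cells were read beside Aqp1. Over all tested genes 23.9% were called lower and 16.7% higher. Of 8 endothelial genes, 5 were lower and 2 higher past the threshold, among them Cdh5, the adhesion molecule of endothelial junctions (log2 fold change -1.17), and Cldn5, their claudin (0.82). Their summed level was 131 to 167 FPKM in controls and 108 to 126 FPKM in the libraries labelled Foxl2LsL. Of 6 smooth muscle genes 2 were higher and 4 did not pass, and their sum was 827 to 1643 FPKM in controls and 1468 to 1913 FPKM in the libraries labelled Foxl2LsL. Control 4, where Aqp1 was highest, had the highest endothelial and smooth muscle sums of the controls. The 4 globin genes of the red cell list were listed at 0 in every library, and the red cell sum was at most 1.33 FPKM. How reads shared between similar genes were counted cannot be judged, so these values do not measure the amount of blood. The part of vessel or muscle cells in the level of Aqp1 was not tested.

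**Figure D3:**
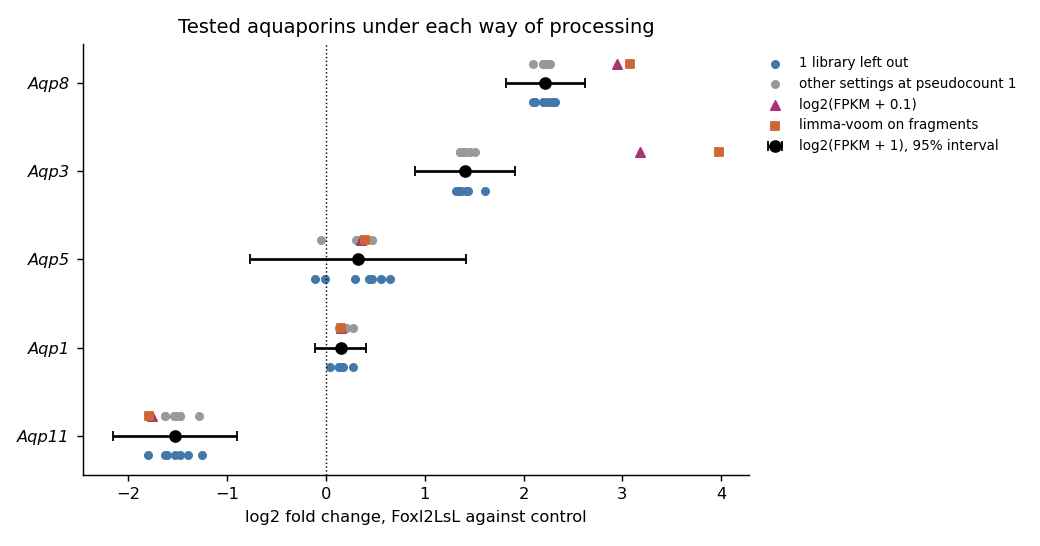
Log2 fold change (horizontal axis) of the 5 tested aquaporins between libraries labelled Foxl2LsL and controls; black points with bars are estimates on log2(FPKM + 1) with 95% intervals, blue points leave out 1 library each, and the other marks are other settings. Aqp8 and Aqp3 stay above 0 and Aqp11 below 0 throughout, the estimates of Aqp3 and Aqp8 grow with a smaller pseudocount, and those of Aqp5 lie on both sides of 0.

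The other members, Aqp2, Aqp4 and Aqp9, lay below the filter, with means over the 7 libraries of 0.233, 0.0903 and 0.125 FPKM. Aqp9, an aquaglyceroporin of liver and leukocytes, was the only one of these whose groups did not overlap. It was at 0.187, 0.205 and 0.127 FPKM in controls 1, 2 and 4 and at 0.088, 0.087, 0.080 and 0.104 FPKM in the libraries labelled Foxl2LsL 1 to 4, on 13 to 43 fragments a library. All 4 libraries labelled Foxl2LsL lay below all 3 controls, with a two-sided exact permutation p of 0.0571, the smallest this design allows. When all genes were tested without a filter, Aqp9 was called lower, at adjusted p 0.0214 by limma with Benjamini-Hochberg and 0.0491 by limma-voom on the fragments. In these 2 fits 3370 and 3548 of 21011 genes were called lower. Neutrophil markers, of which 2 of 6 were tested and neither passed, summed to 3.57 to 5.07 FPKM in controls and 2.85 to 5.54 FPKM in the libraries labelled Foxl2LsL. The macrophage sum, higher in the libraries labelled Foxl2LsL, ran opposite to Aqp9, and the part of leukocytes in its level was not tested.

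Aqp2, the channel that vasopressin moves to the surface of kidney collecting duct cells, was at 0.123, 0.273 and 0.075 FPKM in controls and at 0.172, 0.340, 0.502 and 0.148 FPKM in the libraries labelled Foxl2LsL. Its groups overlapped, with 7 to 43 fragments a library (two-sided exact permutation p 0.286). Aqp4, the main channel of brain astrocytes, was at 0.024, 0.079 and 0.264 FPKM in controls and at 0.069, 0.049, 0.030 and 0.117 FPKM in the libraries labelled Foxl2LsL. Control 4 alone was well above the rest, and the groups overlapped (two-sided exact permutation p 0.571). At these fragment counts a difference smaller than the spread between libraries could not be detected.

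Some members are neighbours in the genome. Aqp2, Aqp5 and Aqp6 lie in a row on chromosome 15, with gaps of 6.23 and 6.57 kb between them, and their levels differed widely: Aqp5 had a mean of 15.4 FPKM over the 7 libraries, Aqp2 0.233 FPKM and Aqp6 0.00214 FPKM. Aqp3 and Aqp7 are neighbours on chromosome 4, and Aqp7 was at 0.0703 ± 0.0699 FPKM (SD, n = 3) in controls and 0.114 ± 0.0983 FPKM (SD, n = 4) in the libraries labelled Foxl2LsL, with overlapping groups. Aqp8 and Aqp11, which moved in opposite directions, are both on chromosome 7, 25724 kb apart. The aquaporins outside the 8, Mip, Aqp6, Aqp7 and Aqp12, were all below 1 FPKM and none was tested. Aqp7, the glycerol channel of fat cells, was highest in control 4 and in the libraries labelled Foxl2LsL 2 and 3 (0.151, 0.141 and 0.242 FPKM against at most 0.0380 FPKM elsewhere), the 3 libraries with the most adipose marker signal (69.4, 94.5 and 190 FPKM against at most 14.2 FPKM).

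Water follows the ions that cells move, so 18 genes of epithelial ion transport were read beside the channels. Of 15 tested, 4 were higher and 7 lower past the threshold, beside 16.7% and 23.9% of all tested genes, with a median log2 fold change of -0.14 against -0.05 over all tested genes. The rises were led by carbonic anhydrases, enzymes that supply bicarbonate and protons: Car12 was at 7.77 ± 1.58 FPKM (SD, n = 3) in controls and rose to 75.2 ± 24.5 FPKM (SD, n = 4), or by 3.08 on the log2 scale (adjusted p 0.000295 by limma with Benjamini-Hochberg), and Car2 from 56.8 ± 19.2 to 213 ± 26.7 FPKM (1.94). The falls were led by Scnn1b, a subunit of the epithelial sodium channel, from 9.33 ± 2.30 to 2.37 ± 0.772 FPKM (log2 fold change -1.62). Atp1b1, a subunit of the sodium pump, followed from 78.4 ± 55.5 to 30.7 ± 1.56 FPKM (-1.11), with controls that spread widely. Cftr, the chloride and bicarbonate channel, was picked out with its values known and did not pass, at 7.03 ± 5.23 and 5.65 ± 2.71 FPKM (adjusted p 0.955 by limma with Benjamini-Hochberg).

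The last list holds 16 genes that move or anchor water channels. Of 14 tested, 3 were higher, none was lower and 11 did not pass, beside the same shares of 16.7% higher and 23.9% lower over all tested genes, with a median log2 fold change of 0.08. The rises were those of Adcy6, an adenylyl cyclase that makes the cAMP which sends Aqp2 to the membrane (0.54), Vamp2, a vesicle fusion protein (0.45), and Akap13, an anchor of protein kinase A (0.40). For these 3 genes every library labelled Foxl2LsL lay above every control, as for 19.7% of all tested genes. The vasopressin receptor genes Avpr2 and Avpr1a were below the filter in mean level and were not tested. Avpr2 was at 0.148 to 0.205 FPKM in controls and 0.254 to 0.492 FPKM in the libraries labelled Foxl2LsL, without overlap. The groups overlapped in Avpr1a.

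**Figure D4:**
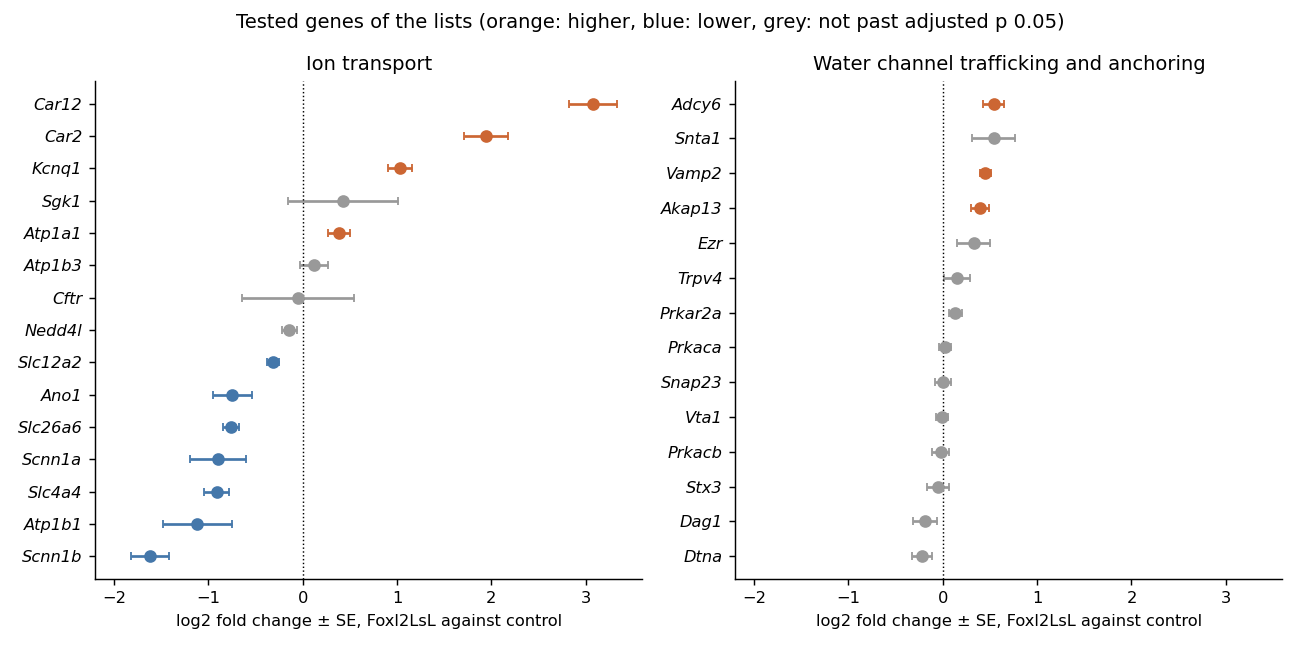
Log2 fold change with SE (horizontal axis) for the 15 tested genes of ion transport and the 14 of water channel trafficking and anchoring, libraries labelled Foxl2LsL against controls; colour gives the call at an adjusted p of 0.05. Car12 and Car2 lie farthest to the right and Scnn1b farthest to the left, while most trafficking genes lie near 0.

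The genes most like each tested member over the 7 libraries were ranked by Pearson's r of log2(FPKM + 1), as a description over libraries that share the same 2 groups. They were Ikzf2 (0.999), Ddrgk1 (0.999) and Blvrb (0.998) for Aqp8, and Nfkbia (0.997), Htr1d (0.997) and Ifi27l2a (0.996) for Aqp3. For Aqp11 they were Zkscan17 (0.993), 3110062M04Rik (0.987) and Lrfn3 (0.986). For the members that did not pass the threshold they were Trim30a (0.983), Ifi44 (0.969) and Trim34a (0.969) for Aqp5, and Auh (0.978), Ppp3ca (0.957) and Adipor1 (0.940) for Aqp1.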

How the data were processed

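RNA was extracted from whole uterus with TRIzol and made into Illumina libraries, per the labels' protocols. The authors deposited 1 table of FPKM values for 24964 gene symbols in 7 libraries, and that deposited table lists another value, the length of each gene in bases. The submitters' processing notes name STAR 2.5.2b, featureCounts 1.5.0-p1, DESeq2 1.12.4 and mm10 (the same assembly as GRCm38), without saying what each was used for. Annotation, strand setting and filters are not given in the sources used here, and how reads shared between similar genes were counted cannot be judged. Fragments per gene were recovered from the product of FPKM and length, which steps in units of 1 fragment: 100% of 1653 to 1832 low values lay within 0.1 of a whole number. These counts carry counting error and also the spread between libraries.

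The test covered 13334 genes whose FPKM averaged 1 or more. It used limma 3.58.1 under R 4.3.3, on log2(FPKM + 1), with an intensity trend and Benjamini-Hochberg adjustment over all tested genes at 0.05. Fold changes on this scale understate those of low genes. Single values outside the filter had a two-sided exact permutation test over 35 splits (scipy 1.17.1), with no adjustment. Figures used matplotlib 3.10.9 in Python 3.11.15, and the limma steps were tested on simulated data. Groups come from the sample titles. From each list, at most the 4 genes that passed and changed most were named. Krt4, Krt5, Krt14, Trp63, Spink1, Prss28, Prss29, Ovgp1, Cftr, Aqp7, Aqp6, Avpr2 and Avpr1a were named after their values were seen. The members and lists were chosen with earlier results of these data known. The groups share the numbers 1, 2 and 4, and no label says that these pair animals. Alternatives covered scaling, pseudocount, filter, variance prior, weights, fragments, a replicate block and leaving out each library.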

Additional observations from a re-analysis of the deposited data

Results flagged for a closer look

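Aqp3 in the library labelled Foxl2LsL 2 was at 0.95 FPKM, and its gap to the nearest of the other 3 libraries took up 0.850 of the range of the group, above the 95% critical value of Dixon's test for 4 samples. It was still above all 3 controls. Without this library the log2 fold change of Aqp3 was 1.61, against 1.41. Of 16 groups of 4 checked in this way, 1 passed, and chance passes about 1 in 20. The simple epithelium markers were also lowest in this library within its group (1098 FPKM), and their part in the value was not tested.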

How the results depend on the processing

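The 3 calls among the members, of Aqp3, Aqp8 and Aqp11, kept their direction and their call under every alternative that tested them. A mean FPKM of at least 5 left Aqp3 untested. Aqp3 passed the main filter only through the libraries labelled Foxl2LsL, and with no filter its adjusted p was 0.00506 by limma with Benjamini-Hochberg. Leaving out each of the 7 libraries in turn, the log2 fold change of Aqp3 was 1.32 to 1.61, that of Aqp8 2.09 to 2.32 and that of Aqp11 -1.80 to -1.25. Aqp5 changed sign without control 4 (-0.11), without the library labelled Foxl2LsL 1 (-0.01) and with array weights (-0.044), and never passed; it ranged from -0.11 to 0.65 when a library was left out. Aqp1 passed without control 4, where 5328 of 13334 genes were called, and with array weights, where 7250 were. With array weights its log2 fold change was 0.28 (adjusted p 0.0246 by limma with Benjamini-Hochberg). Over all its alternatives the adjusted p by limma with Benjamini-Hochberg was 0.0246 to 0.791. The number of genes called was 5409, and 3853 to 5328 when a library was left out. Adding a replicate block for the numbers 1, 2 and 4 gave 3243, against 3975 in the same libraries without the block, and the calls of the members did not change. Deviations of same-numbered libraries correlated at 0.228, -0.0306 and -0.112, and those of differently numbered libraries at -0.256 to 0.191. So few values, centred within each group, cannot decide whether the numbers pair the libraries. No label says that they do, so the main fit did not pair them. With 3 and 4 libraries a group, the low fragment counts of Aqp2, Aqp4 and Aqp9 limit what can be said of them. The fit of fragments without a filter was chosen after seeing the data.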
